A study of Mus musculus with 24 samples.

Results

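The 76 genes described here carry the symbols of mitochondrial ribosomal proteins. They were taken as every gene whose annotated symbol starts with Mrpl or Mrps followed by a digit, out of 18194 genes with a probe set of a single symbol, and each gene was read from its probe set with the highest mean. Their messenger RNA was measured on 24 Affymetrix arrays in the liver of male B6C3F1 mice, 7 to 10 weeks old on arrival. The animals received diethylhexylphthalate (DEHP), a plasticiser that activates the nuclear receptor PPARα in rodent liver, at 1150 mg/kg by oral gavage every 24 h for 3 days, or the same volume of corn oil, the vehicle. Liver was taken at 2, 8, 24 and 72 h, which gave 8 groups of 3 arrays, each group of one agent at a single time, and no group carried a genetic change. How many doses came before each time is not given here, so time and number of doses cannot be told apart. Whether the arrays of one group stand for single animals, pools or repeats is not given, so the p-values measure the spread between these samples, which may be technical. In whole liver, fewer cells of a type and less RNA per cell cannot be told apart.

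Mitochondria keep their own ribosome, which makes only the membrane-embedded core proteins of the respiratory chain and of the ATP synthase. Its RNA comes from mitochondrial DNA, but all of its proteins are encoded in the nucleus, translated in the cytosol and imported. Some descend from bacterial ribosomal proteins, and others were added in mitochondria. The large subunit forms peptide bonds and the small subunit reads the messenger. Liver cells are rich in mitochondria, and compounds such as DEHP are known to increase fatty acid oxidation in their peroxisomes and mitochondria.

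By symbol, 47 of the genes are named Mrpl and 29 Mrps. By the known structure of the ribosome, 49 sit on the large subunit, among them Mrps18a and Mrps30, which carry small-subunit names. Another 26 sit on the small subunit, and Mrps36 is now known as a subunit of the 2-oxoglutarate dehydrogenase complex. Of the 75 ribosomal members, 46 have bacterial relatives and 29 are specific to mitochondria. A further 2 members, Mrpl30 and Mrpl53, lie only on probe sets that list several genes and were not counted. The mean log2 signal of a member over the 24 arrays lay between 7.52 and 10.85, and all 76 exceeded the 40th percentile of the mean signal of all genes. Signals of different probe sets cannot be ordered against each other, so only differences between groups are compared. The SD of a member over the 24 arrays was 0.105 to 0.301 on the log2 scale, and the SE of a DEHP minus corn oil difference was 0.0818 to 0.178.

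The compound acted in these samples. The log2 signal of Cyp4a14, a fatty acid omega-hydroxylase induced by PPARα, was 7.68, 6.75 and 7.87 in the corn oil arrays at 2 h and 11.78, 11.78 and 12.07 in the DEHP arrays. Its log2 difference was 4.44, 3.92, 4.86 and 5.70 at 2, 8, 24 and 72 h, with an adjusted p of at most 2.01e-06 (limma, Benjamini-Hochberg over all genes). The 7 hepatocyte markers had a median mean log2 signal of 14.07. The array medians lay between 6.46 and 6.55, and arrays of a group correlated with r between 0.989 and 0.996. Markers of exocrine pancreas, which lies beside the liver, averaged 3.03 above their own mean in DEHP replicate 1 at 2 h, and 1.91, 1.73 and 1.42 in corn oil replicate 1 at 72 h, corn oil replicate 2 at 2 h and DEHP replicate 1 at 72 h.

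The stretches just before the start sites of members with the largest differences are shown first, to set their letters beside how these genes moved. Nuclear respiratory factor 1 (NRF1), the ETS-family factor GABP and YY1 are known regulators of nuclear genes for mitochondria, and Myc binds the E-box. RefSeq windows (GRCm38.p6) from 250 bases before to 50 bases after a start were held for 67 members, with 73 windows. No entry was matched for Mrpl4, Mrpl13, Mrpl15, Mrpl19, Mrpl38, Mrpl54, Mrps28, Mrps34 and Mrps35. The searched letters were GCATGCGC for NRF1, CCGGAAG for ETS, AAGATGGC for YY1 and CACGTG for the E-box, on both strands. GCATGCGC can overlap its own reverse complement, and AAGATGGC can overlap the end of CCGGAAG, which it did in 0 members. In the lines below, capitals mark these motifs in the 150 bases that end just before the start, written 5′ to 3′ along the gene.
Mrpl22 (chr11:58171514-58171663, plus strand): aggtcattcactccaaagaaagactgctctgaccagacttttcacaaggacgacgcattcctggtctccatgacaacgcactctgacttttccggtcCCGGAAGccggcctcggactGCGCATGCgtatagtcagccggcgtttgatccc
Mrpl39 (chr16:84735245-84735394, minus strand): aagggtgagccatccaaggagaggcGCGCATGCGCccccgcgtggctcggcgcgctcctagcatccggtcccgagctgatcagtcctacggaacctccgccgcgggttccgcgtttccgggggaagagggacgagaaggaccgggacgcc
Mrpl23 (chr7:142532882-142533031, plus strand): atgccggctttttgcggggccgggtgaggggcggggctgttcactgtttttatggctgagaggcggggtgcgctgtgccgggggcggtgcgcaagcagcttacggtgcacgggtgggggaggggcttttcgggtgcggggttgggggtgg
Mrpl2 (chr17:46646071-46646220, plus strand): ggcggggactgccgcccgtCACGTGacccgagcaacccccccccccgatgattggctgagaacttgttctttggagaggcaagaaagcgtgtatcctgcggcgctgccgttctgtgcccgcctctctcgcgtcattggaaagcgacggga
Mrpl1 (chr5:96209965-96210114, plus strand): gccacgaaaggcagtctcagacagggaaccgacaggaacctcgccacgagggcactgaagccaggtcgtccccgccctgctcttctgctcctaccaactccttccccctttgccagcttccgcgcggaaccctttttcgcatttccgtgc
Mrps22 (chr9:98601680-98601829, minus strand): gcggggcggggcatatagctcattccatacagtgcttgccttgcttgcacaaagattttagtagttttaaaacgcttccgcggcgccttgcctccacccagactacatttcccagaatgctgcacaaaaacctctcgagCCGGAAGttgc
Mrpl22 held both an ETS and an NRF1 match in this stretch, Mrpl39 held overlapping NRF1 matches, Mrpl2 an E-box and Mrps22 an ETS match, and Mrpl23 and Mrpl1 held none of these letters. Over the 67 members, the NRF1 letters occurred in a window of 8 (11.9%), against 3.05% of 27025 genes and 2.71% of 32851 windows. The ETS letters occurred in 25 members (37.3%), against 9.93% of genes and 8.86% of windows. The YY1 letters occurred in 12 members (17.9%), against 3.19% of genes and 2.75% of windows. The E-box occurred in 5 members (7.46%), against 8.09% of genes and 7.15% of windows. At least 1 of the NRF1, ETS and YY1 motifs stood in 37 members (55.2%), against 14.9% of genes, and 28 members held none of the 4. These matches describe letters only and say nothing of binding in these livers. The 27025 genes were not limited to those measured here or matched for signal, so the shares cannot show a trait particular to the members.

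Across the 4 times, few single members differed between DEHP and corn oil, and those that did were genes of the large subunit. That subunit holds 49 of the 76 members, and a difference between the subunits was not tested. Called genes have an adjusted p under 0.05 in limma, with Benjamini-Hochberg adjustment over 18194 genes. Called members were 1 at 2 h (Mrpl38, higher), 5 at 8 h (Mrpl23, Mrpl22, Mrpl39, Mrpl2 and Mrpl4, all lower), 0 at 24 h and 1 at 72 h (Mrpl1, higher). No value exceeded 0.54 on the log2 scale, a 1.45-fold change. The plot of changes by time and the map of changes by gene show that most members lay below 0 at 8 h and above 0 at 24 h.

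**Figure D1:**
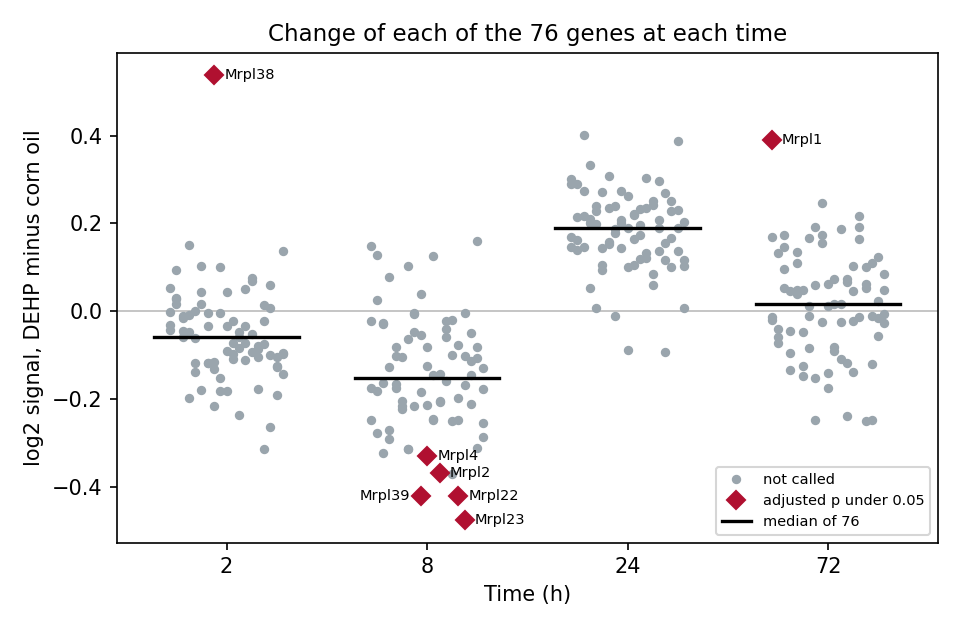
Log2 signal, DEHP minus corn oil, of each of the 76 genes (points) at 2, 8, 24 and 72 h, with the median as a bar and called genes (adjusted p under 0.05) as labelled diamonds. The median was −0.06, −0.15, 0.19 and 0.02, and the 7 called values lie at 2, 8 and 72 h.

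**Figure D2:**
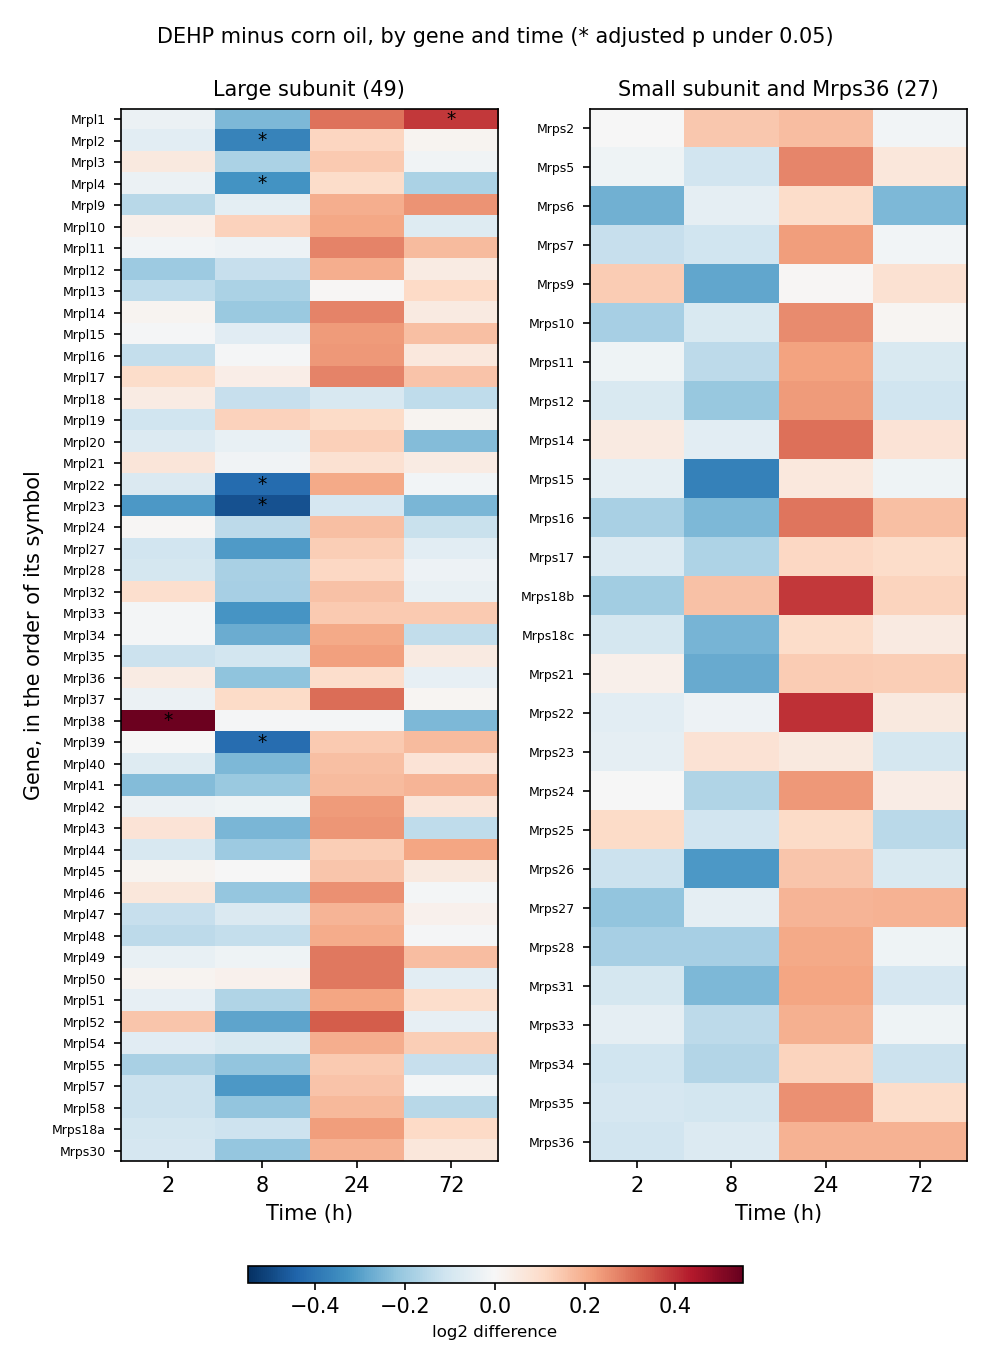
Log2 signal, DEHP minus corn oil, for each gene (rows, in the order of the symbol) at each time (columns), with the large subunit on the left and the small subunit with Mrps36 on the right; asterisks mark an adjusted p under 0.05. At 8 h, 68 of 76 genes lie below 0, and at 24 h, 73 of 76 lie above 0.

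At 2 h, Mrpl38 (mL38, a protein of the large subunit found only in mitochondria) rose. Its log2 signal was 9.48, 9.59 and 9.47 in corn oil and 10.00, 10.06 and 10.09 with DEHP. The groups did not overlap, and the 3 DEHP arrays lay close together above them. The difference was 0.54 ± 0.11 (SE, n = 3 per group, adjusted p = 0.0131 in limma). Its other probe sets gave 0.42 and 0.34 at 2 h. Several marker lists differed between the arrays of 2 h. The 8 neutrophil markers averaged −0.28, −0.25 and −0.22 relative to their own means in corn oil and 0.85, −0.03 and 0.68 with DEHP, without overlap, with 5 of 8 above 0 and 0 called. The 10 stellate and duct markers and the 3 red blood cell markers averaged lower with DEHP, also without overlap and with 0 called. The 8 exocrine pancreas markers averaged 0.86, 1.73 and −0.56 in corn oil and 3.03, −0.49 and −0.51 with DEHP. Their part in the Mrpl38 value was not tested. At 8, 24 and 72 h Mrpl38 gave −0.01, −0.01 and −0.25, none of them called. Its other probe sets gave 0.28 and 0.28 at 8 h and lay below 0 at 24 and 72 h. The call at 2 h ended when corn oil replicate 1, corn oil replicate 3 or DEHP replicate 3 of that time was dropped (limma adjusted p = 0.0689, 0.0723 and 0.0701), while the difference stayed between 0.52 and 0.58.

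The other members gave little at 2 h. Called genes were 1 member higher and 0 lower, against 0.616% and 0.214% of all genes. At an unadjusted p under 0.05, 1 member was higher and 2 were lower (Mrpl23 and Mrpl41), against 3.94% and 4.49% of all genes. Groups that did not overlap were found for 1 member higher and 7 lower, against 4.67% and 6.72% of all genes. These shares are near the background. The median of the members was −0.06, with 57 of 76 below 0, beside −0.02 for all genes. DEHP replicate 3 set that sign: without it the median was 0.025. Only 4 of 76 members lay above their own 24-array mean on that array.

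At 8 h, 5 genes of the large subunit fell, which were Mrpl23, Mrpl22, Mrpl39, Mrpl2 and Mrpl4. Mrpl23 (uL23m) stands at the mouth of the tunnel through which the peptide leaves, and Mrpl22 (uL22m) and Mrpl4 (uL4m) line that tunnel. Mrpl2 (uL2m) lies close to the site where peptide bonds form, and Mrpl39 (mL39) is specific to mitochondria. Other proteins near the exit of the tunnel were not called at 8 h, with −0.15 for Mrpl24 and −0.08 for Mrpl47.

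The log2 signal of Mrpl23 at 8 h was 9.73, 9.85 and 9.87 in corn oil and 9.55, 9.22 and 9.25 with DEHP. All DEHP arrays lay below all corn oil arrays, with replicate 1 nearest to them. The difference was −0.48 ± 0.11 (SE, n = 3 per group, limma adjusted p = 0.0122), which is 0.718 times the corn oil level.

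Mrpl22 read 10.05, 10.23 and 10.05 in corn oil at 8 h and 9.73, 9.77 and 9.57 with DEHP. The groups were apart, with DEHP replicate 3 lowest. The difference was −0.42 ± 0.10 (SE, n = 3 per group, limma adjusted p = 0.0179). Mrpl39 read 10.89, 11.25 and 10.93 in corn oil and 10.61, 10.70 and 10.50 with DEHP. Corn oil replicate 2 stood above the others, and the groups did not overlap. The difference was −0.42 ± 0.10 (SE, n = 3 per group, limma adjusted p = 0.012), and its other probe set gave −0.21.

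Mrpl2 read 10.44, 10.56 and 10.41 in corn oil at 8 h and 10.15, 10.22 and 9.94 with DEHP. Its highest DEHP array lay below its lowest corn oil array. The difference was −0.37 ± 0.10 (SE, n = 3 per group, limma adjusted p = 0.0313). Mrpl4 read 9.69, 9.53 and 9.55 in corn oil and 9.25, 9.22 and 9.30 with DEHP. The DEHP arrays were close together and the groups did not overlap. The difference was −0.33 ± 0.09 (SE, n = 3 per group, limma adjusted p = 0.0399). The plot of signals by array shows these genes with Mrpl38, Mrpl1 and Mrps22.

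**Figure D3:**
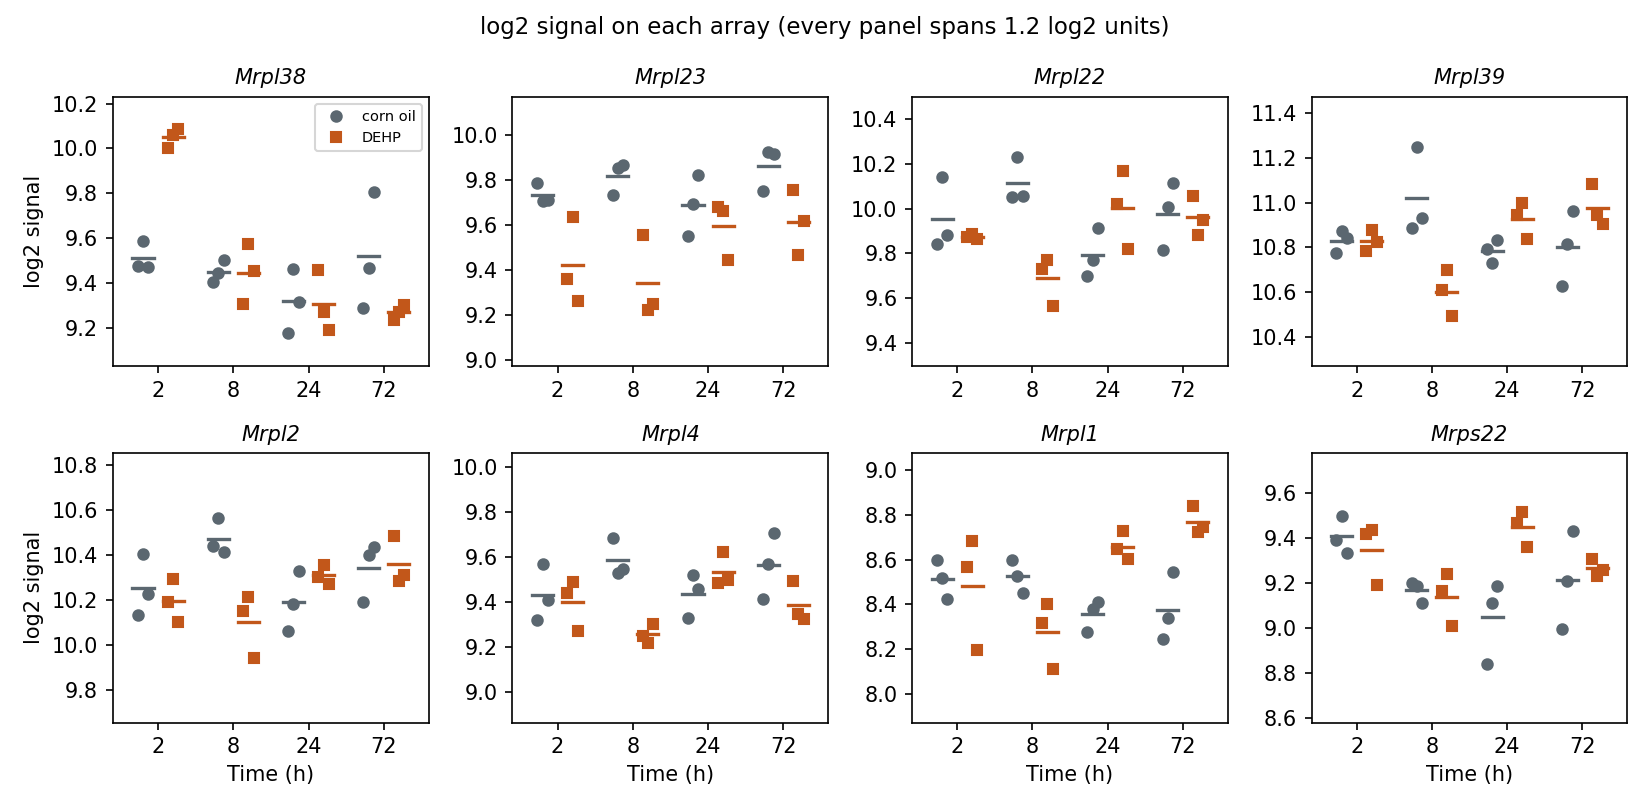
Log2 signal on each array (circles, corn oil; squares, DEHP; bars, means of 3 arrays) by time for the 7 called genes and Mrps22. Mrpl38 is apart only at 2 h, the 5 genes called at 8 h are apart there, and Mrpl1 has its DEHP arrays above corn oil at 24 and 72 h.

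These calls at 8 h were sensitive to single arrays. With corn oil replicate 2 dropped, or DEHP replicate 3, 0 members were called. Dropping the first replicate of either agent, or the second of DEHP, left 3 called, while all 5 differences kept their sign. Corn oil replicate 2 had the highest mean over the members among the corn oil arrays at 8 h (0.12) and also stood apart in RNA quality: its Actb signal was 1.46 higher from the 3′ than from the 5′ probe set, against at most 0.816 on the other 23 arrays. Its macrophage and endothelial markers averaged −0.61 and −0.71 relative to their own means. With the Actb difference as a covariate, 0 members were called at 8 h. The differences then were −0.43 for Mrpl23, −0.33 for Mrpl22, −0.28 for Mrpl39, −0.30 for Mrpl2 and −0.36 for Mrpl4. The 7 hepatocyte markers averaged between −0.14 and −0.10 in corn oil at 8 h and between −0.07 and −0.02 with DEHP, without overlap. Yet 5 of the 7 lay below 0, with a median of −0.02, while 1 was called higher and the largest difference was 0.67. All 8 exocrine pancreas markers lay below 0 at 8 h, with a median of −0.29 and 0 called, while their array means overlapped between the agents. The part of these markers in the values of the members was not tested.

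The remaining members leaned the same way at 8 h without being called. In all, 68 of 76 members lay below 0, the median was −0.15, and the median of all genes was −0.02. Called members were 0 higher and 5 lower (6.58%), against 1.28% and 2.86% of all genes. At an unadjusted p under 0.05, 0 members were higher and 20 lower (26.3%), against 4.09% and 11.6%. Groups that did not overlap were found for 2 members higher and 24 lower (31.6%), against 5.44% and 13.1%. The 8 members above 0 were Mrpl10, Mrpl17, Mrpl19, Mrpl37, Mrpl50, Mrps2, Mrps18b and Mrps23. The lean was smaller without DEHP replicate 3, where the median was −0.08 and 19 members lay above 0.

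Both subunits took part in the lean at 8 h. Of the 49 genes of the large subunit, 44 lay below 0 with a median of −0.17, and 5 were called. Of the 26 genes of the small subunit, 23 lay below 0 with a median of −0.14, and 0 were called, with 5 at an unadjusted p under 0.05 and a smallest limma adjusted p of 0.164. The difference between subunits was not tested. The genes with bacterial relatives and those specific to mitochondria each had a median of −0.16.

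At 24 h the sign was the other way, and no single gene was called. Of 76 members, 73 lay above 0, with a median of 0.19, beside a median of −0.00346 for all genes. The exceptions were Mrpl23 and Mrpl18, both at −0.09, and Mrpl38 at −0.01. Called members were 0 higher and 0 lower, against 0.253% and 0.044% of all genes, and the smallest limma adjusted p of a member was 0.181. At an unadjusted p under 0.05, 23 members were higher (30.3%) and 0 lower, against 4.15% and 3.98%. Groups that did not overlap were found for 27 members higher (35.5%) and 0 lower, against 6.38% and 7.47%. The 7 hepatocyte markers averaged between 0.02 and 0.07 in corn oil at 24 h and between −0.04 and −0.01 with DEHP, without overlap, with 6 of 7 below 0 and 0 called. All 10 stellate and duct markers lay above 0 at 24 h, with a median of 0.08 and 0 called, while their array means overlapped. On DEHP replicate 3 at 24 h the macrophage and endothelial markers averaged −0.40 and −0.41 relative to their own means. The part of these cell types in the values of the members at 24 h was not tested.

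Mrps22 (mS22, a protein of the small subunit specific to mitochondria) had the largest difference at 24 h. Its log2 signal was 8.84, 9.11 and 9.19 in corn oil and 9.47, 9.51 and 9.36 with DEHP. All DEHP arrays lay above all corn oil arrays, and corn oil replicate 1 was lowest. The difference was 0.40 ± 0.11 (SE, n = 3 per group, limma adjusted p = 0.181). Mrps18b (mS40, a relative of bacterial S18) followed at 0.39 ± 0.16, from 9.25, 9.83 and 9.59 in corn oil and 9.83, 10.15 and 9.86 with DEHP. Its spread in corn oil was wide, DEHP replicate 1 lay level with corn oil replicate 2, and the limma adjusted p was 0.533. Mrpl52 (mL52) read 9.40, 9.59 and 9.62 in corn oil and 9.91, 10.00 and 9.70 with DEHP, a difference of 0.33 ± 0.18 (SE, n = 3 per group, limma adjusted p = 0.659). For Mrpl52 the groups did not overlap, but its SE was close to the highest among the members.

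The values at 24 h were alike across the classes of members. The large subunit had 46 of 49 genes above 0 and a median of 0.19, and the small subunit had 26 of 26 and a median of 0.20. Genes with bacterial relatives had a median of 0.19 (44 of 46 above 0), as had genes specific to mitochondria (28 of 29). Mrps36, which is not a ribosomal protein, gave 0.19. Under single arrays left out, between 70 and 74 members lay above 0, and the median ran from 0.12, without corn oil replicate 1 of that time, to 0.25.

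At 72 h the members were spread on both sides of 0. The median was 0.02, with 41 members above and 35 below 0, beside a median of −0.03 for all genes. Its sign turned when corn oil replicate 1 (−0.048) or DEHP replicate 1 (−0.02) of that time was left out. Called members were 1 higher and 0 lower, against 1.13% and 3.05% of all genes. At an unadjusted p under 0.05, 5 were higher and 3 lower, against 7.24% and 14.4%. Groups that did not overlap were found for 6 members higher and 3 lower, against 10.1% and 18.1%. The counts are near or below the background.

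Mrpl1 (uL1m, on the stalk beside the site where used tRNA leaves) was the gene called at 72 h. It read 8.25, 8.34 and 8.54 in corn oil and 8.84, 8.72 and 8.74 with DEHP. All DEHP arrays lay above all corn oil arrays. The difference was 0.39 ± 0.11 (SE, n = 3 per group, limma adjusted p = 0.0396). At 24 h it read 8.28, 8.38 and 8.41 in corn oil and 8.65, 8.73 and 8.60 with DEHP, a difference of 0.30 that was not called. Its other probe sets gave 0.26 and −0.18 at 72 h, and with the mean of its probe sets the limma adjusted p was 0.214. The call ended when either of the first 2 corn oil arrays or any DEHP array of 72 h was dropped (limma adjusted p between 0.0910 and 0.135). At 72 h all 9 macrophage markers were lower with DEHP, with a median of −0.67 and 4 called. All 8 endothelial markers were lower too, with a median of −0.36 and 0 called, and their array means lay between 0.16 and 0.47 in corn oil and at or below 0 with DEHP. The 8 neutrophil markers averaged lower with DEHP, with 5 of 8 below 0 and 0 called. The part of these cell types in the Mrpl1 value was not tested.

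The members listed by role in the naming rule had no call at any time, and all 8 lay above 0 at 24 h. Mrpl12 (bL12m), the stalk protein that recruits translation factors and also binds the mitochondrial RNA polymerase, gave −0.20, −0.13, 0.20 and 0.05 at 2, 8, 24 and 72 h. Mrpl11 (uL11m), at the base of that stalk, gave −0.02, −0.03, 0.27 and 0.17. Mrps12 (uS12m), at the decoding centre, gave −0.08, −0.21, 0.23 and −0.11. Like 65 of the 76 members, all 8 genes of this list were positive at 24 h and negative at 8 h. Mrpl45 (mL45), which ties the ribosome to the inner membrane, gave 0.01, −0.00375, 0.15 and 0.05. Mrps27 (mS27), a pentatricopeptide repeat protein, gave −0.22, −0.05, 0.19 and 0.19. Mrps18a gave −0.10, −0.11, 0.23 and 0.11, Mrps30 gave −0.09, −0.21, 0.19 and 0.06, and Mrps36 gave −0.11, −0.08, 0.19 and 0.19.

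Mrpl23 was the single member called for its mean difference over the 4 times. It read 9.79, 9.71 and 9.71 in corn oil at 2 h and 9.36, 9.64 and 9.26 with DEHP. Its differences were −0.32, −0.48, −0.09 and −0.25 at the 4 times, all below 0, of which that at 8 h was called. The mean over the times was −0.28 ± 0.05 (SE, 12 arrays per agent, limma adjusted p = 0.00233), and it was called whichever single array was left out, with adjusted p between 0.000803 and 0.00608. Members with a called mean effect were 0 higher and 1 lower, against 1.98% and 4.42% of all genes. With the mean of all probe sets, Mrps2 was called too, and under quantile normalization 4 members were called (Mrpl11, Mrpl17, Mrpl23 and Mrps14).

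The change of sign between 8 and 24 h ran through most of the set. In all, 65 members (85.5%) lay below 0 at 8 h and above 0 at 24 h, beside 24.3% of all genes. A higher difference at 24 h than at 8 h was found for 73 members (96.1%), beside 55.7% of all genes, and the median step was 0.34, beside 0.02 for all genes. All genes were not matched for signal to the members, here or at the single times. Their median mean log2 signal was 7.25, against 9.44 for the members. The part of signal level in the gap was not tested, and the step was not counted for other gene groups. As tests of the difference itself, 0 members were called for the step from 8 to 24 h in either direction, against 0.286% of all genes higher and 0.181% lower. Mrpl22 (0.63, limma adjusted p = 0.0522) and Mrpl39 (0.56, adjusted p = 0.0651) came nearest. At an unadjusted p under 0.05, 43 members were higher (56.6%) and 0 lower, against 6.99% and 2.26% of all genes. The members vary together from array to array (mean correlation 0.503), so these are not counts of independent genes. The groups were apart in opposite directions at the 2 times for 8 members (10.5%), against 0.649% of all genes. They were Mrpl1, Mrpl24, Mrpl34, Mrpl39, Mrpl41, Mrpl46, Mrps12 and Mrps16. An F test over all 4 times found an effect that differed between times for 3 members, against 2.08% of all genes. They were Mrpl38 (adjusted p = 0.0244), Mrpl39 (0.0431) and Mrpl1 (0.0496). An F test for an effect at any time called 4 members, against 6.46% of all genes, namely Mrpl23 (0.0108), Mrpl38 (0.0144), Mrpl1 (0.0242) and Mrpl39 (0.0342).

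The corn oil arrays also moved between times in the mean over the 76 genes, taken after subtracting each gene's own mean. In corn oil the mean read −0.10, 0.04 and −0.01 at 2 h, 0.09, 0.12 and 0.07 at 8 h, −0.26, −0.07 and −0.03 at 24 h, and −0.07, 0.05 and 0.15 at 72 h. With DEHP it read 0.03, −0.01 and −0.24 at 2 h, −0.00165, 0.03 and −0.19 at 8 h, 0.04, 0.17 and −0.02 at 24 h, and 0.14, 0.02 and 0.01 at 72 h. The agents were apart at 8 h, where all corn oil arrays were higher, and at 24 h, where all DEHP arrays were higher. They overlapped at 2 and 72 h. The differences were −0.05, −0.15, 0.18 and 0.02 on the log2 scale, beside a pooled SD within groups of 0.103. From 8 to 24 h the group mean went from 0.094 to −0.118 in corn oil and from −0.053 to 0.064 with DEHP. The larger move was thus in corn oil. Single arrays stood out within groups. On corn oil replicate 1 at 24 h, 1 of 76 members lay above its own mean, and on DEHP replicate 3 at 8 h, 5 did. On DEHP replicate 2 at 24 h it was 72, and on corn oil replicate 3 at 72 h it was 71.

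**Figure D4:**
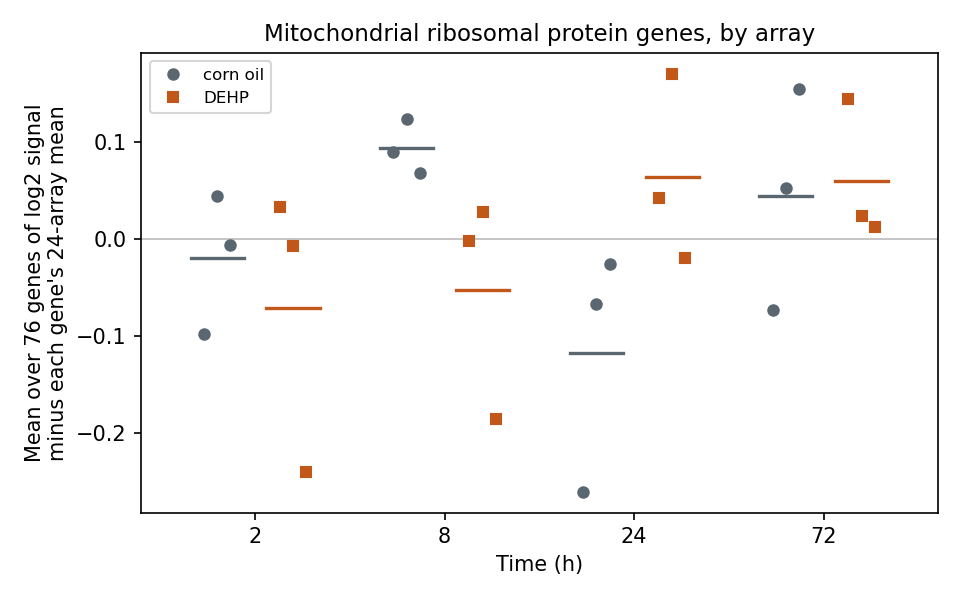
Mean over the 76 genes of the log2 signal minus each gene's own 24-array mean, for each array (circles, corn oil; squares, DEHP; bars, means of 3 arrays) by time. Corn oil lies above DEHP at 8 h and below it at 24 h, with corn oil replicate 1 at 24 h (−0.26) and DEHP replicate 3 at 2 h (−0.24) lowest.

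No member was called for a difference between the times in corn oil (0 of 76, limma F test), against 3.55% of all genes, and 16 members had an unadjusted p under 0.05, against 16.7% of all genes. The smallest adjusted p were those of Mrpl15 (uL15m, 0.0716), Mrpl51 (mL51, 0.0723), Mrpl46 (mL46, 0.077) and Mrpl47 (uL29m, 0.137). Mrpl15 read 10.47, 10.62 and 10.73 in corn oil at 2 h and 10.97, 11.08 and 10.90 at 8 h. It then read 10.40, 10.64 and 10.69 at 24 h and 10.64, 10.60 and 10.75 at 72 h. Its 8 h arrays were above those of every other time. The same held for Mrpl51 at 8 h, whose corn oil arrays read 10.67, 10.71 and 10.54 at 8 h and 10.25, 10.26 and 10.40 at 24 h.

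The members varied together from array to array. After the group means were removed, the mean correlation over the 2850 pairs of members across the 24 arrays was 0.503, and 97.0% of pairs were above 0. The same mean was 0.296 for 54 genes whose symbols start with Rpl or Rps and a digit (cytosolic ribosome). It was 0.259 for 102 genes with symbols starting with Nduf, Sdh, Uqcr, Cox and a digit, or Atp5 (respiratory chain and ATP synthase). For all genes it was 0.0199. Both groups were taken by symbol alone, so they can hold genes of other function. The pairs share arrays, RNA and normalization, so the values describe each set and are not independent. The members least like the others were Mrps23 and Mrpl44, with a mean correlation of 0.0966 and 0.108. Those most like the others were Mrpl58, a peptidyl-tRNA hydrolase built into the large subunit, and Mrps28, with 0.664 and 0.661.

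Different probe sets of a gene did not always give the same sign. The 76 genes have 156 probe sets, and 42 genes have several. All probe sets of a gene had the same sign for 17, 18, 23 and 20 of these 42 genes at 2, 8, 24 and 72 h. Among the 80 probe sets not used above, the 42 with a mean log2 signal of at least 7 had a median of −0.05 at 8 h (22 below 0) and 0.14 at 24 h (33 above 0). The 38 dimmer ones had medians of −0.01 and 0.01.

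**Figure D5:**
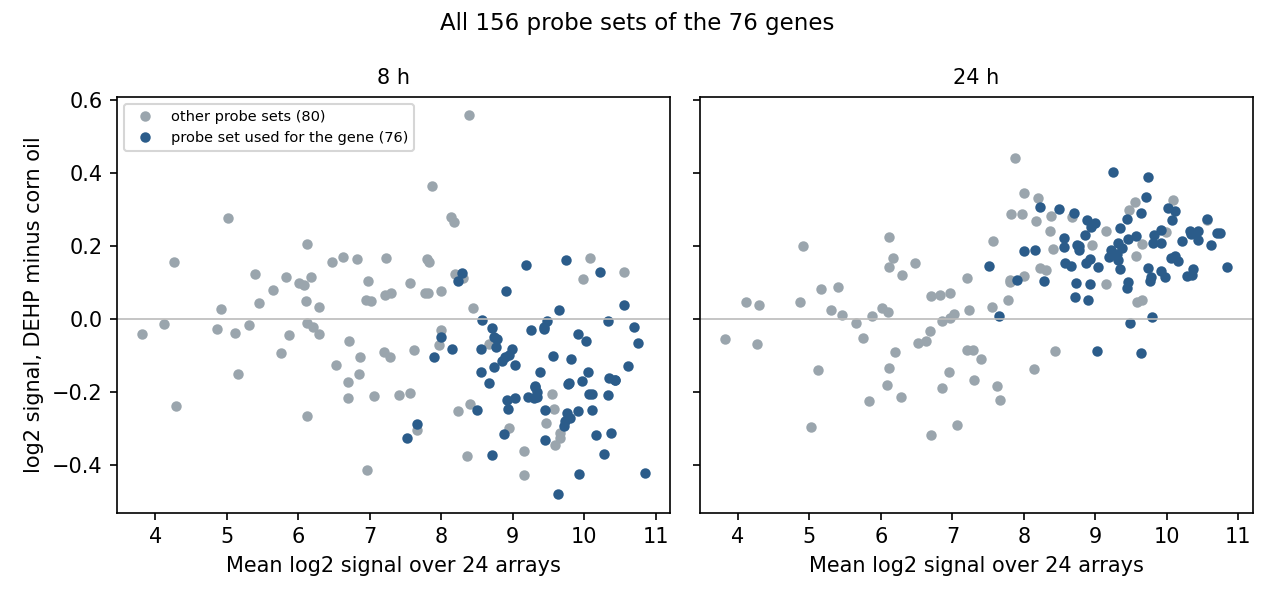
Log2 signal, DEHP minus corn oil, against the mean log2 signal over 24 arrays for all 156 probe sets of the 76 genes, at 8 h (left) and 24 h (right); blue points are the probe sets used for the genes and grey points the 80 others. At 24 h, 73 of 76 used probe sets lie above 0, while the dim probe sets at the left scatter around 0.

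The neighbouring gene groups gave smaller medians at 24 h, but leaned the same way as the members at 8 and 24 h. The 54 genes taken by Rpl and Rps symbols had medians of 0.02, −0.07, 0.10 and −0.01 at the 4 times. A single one of them was called (1 lower at 72 h), against 3.05% of all genes called lower at that time. The complexes of the respiratory chain and ATP synthase hold the products of the mitochondrial ribosome. The 102 genes taken by their symbols had medians of −0.07, −0.14, 0.11 and 0.06. Of these 102 genes, 1 was called higher and 7 lower at 8 h, 1 higher at 24 h and 2 higher at 72 h. The shares of all genes were 1.28% higher and 2.86% lower at 8 h, 0.253% higher at 24 h and 1.13% higher at 72 h. At 8 h, 78 of the 102 lay below 0. At an unadjusted p under 0.05, 28 of the 102 were lower and 2 higher, against 11.6% and 4.09% of all genes. Groups did not overlap for 39 of the 102 lower and 4 higher, against 13.1% and 5.44% of all genes. The corresponding counts of members lower were 20 (26.3%) and 24 (31.6%) of 76. At 24 h, 87.0% of the 54 genes and 87.3% of the 102 lay above 0, beside 96.1% of the members. Groups that did not overlap were found for 16 and 28 of them higher and 0 lower, against 6.38% and 7.47% of all genes. The 2 leans were thus not particular to the members. The differences between these groups and the members were not tested.

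Other genes that build or use the mitochondrial ribosome were read from 6 fixed lists. The 4 ribosomal proteins with other names (Dap3, Ptcd3, Chchd1 and Gadd45gip1) had 0 calls at any time, and all 4 lay above 0 at 24 h. Among 22 assembly genes, 1 was called, which was Rbfa, an assembly factor of the small subunit (−0.43 at 8 h, limma adjusted p = 0.00588). The medians of this list were −0.08 at 8 h and 0.10 at 24 h. Among 14 translation factors, 1 was called, Mtfmt, which formylates the initiator methionyl-tRNA (−0.37 at 8 h, limma adjusted p = 0.02). The median of the list was −0.02 at 8 h and 0.13 at 24 h. Of all genes, 2.86% were called lower at 8 h.

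Among 19 mitochondrial tRNA synthetase genes, 1 was called, Yars2, which charges tyrosine tRNA (0.52 ± 0.11 at 24 h, SE, n = 3 per group, limma adjusted p = 0.0352). Of all genes, 0.253% were called higher at 24 h. The list's median was −0.01 at 8 h and 0.10 at 24 h, with 17 of 19 above 0 at 24 h. Among 16 genes of mitochondrial DNA replication, transcription and RNA processing, 0 were called at any single time, with medians of −0.09 at 8 h and 0.10 at 24 h.

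The 11 nuclear regulators of mitochondrial genes did not follow the members at 24 h, where 10 of 11 lay below 0 with a median of −0.20 and 0 were called. At 72 h 1 was called, Pprc1, a coactivator of the PGC-1 family (−0.72 ± 0.18, SE, n = 3 per group, limma adjusted p = 0.0297). Of all genes, 3.05% were called lower at 72 h. As a mean over the 4 times, Ppargc1a (PGC-1α) gave −0.68 (limma adjusted p = 0.0477), Ppargc1b (PGC-1β) 0.27 (0.0478) and Gabpb2, a subunit of GABP, −0.19 (0.0461). These mean effects, 1 higher and 2 lower of 11, stand against 1.98% and 4.42% of all genes. Nrf1 itself gave −0.05, −0.03, −0.20 and 0.08 at the 4 times, and Gabpa, the DNA-binding subunit of GABP, gave 0.13, −0.24, −0.16 and −0.08. Neither was called at any time.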

How the data were processed

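Liver RNA was biotin-labelled and hybridised to Affymetrix arrays of 45101 probe sets, per the labels. The deposited table holds log2 values that the authors computed with RMA, per the submitters' processing notes (version not given in the sources used here); it ranges from 2.84 to 14.55. RMA summarises the probes of a set across all arrays and brings the arrays to one distribution, so a shift shared by all genes would not be seen. The number of arrays limits the precision, since arrays have no depth.

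Symbols came from the platform annotation supplied with the series: 34958 probe sets carry 1 symbol, 932 several, and 9211 have no entry. A model of 8 group means over 24 arrays was fitted with limma 3.58.1 in R 4.3.3 (16 residual and 6.21 prior degrees of freedom), and p-values were adjusted over 18194 genes. The fit was also run on simulated data whose genes varied independently, unlike the members, so that run says nothing of counts of called members. The members and the lists were chosen with earlier results of these data known. Named at each time were up to 6 called rises and 6 called falls, or the 3 largest values of each sign where none was called; the 4 members with the smallest corn oil adjusted p; up to 4 called for a difference between times; and Mrpl12, Mrpl11, Mrps12, Mrps18a, Mrps30, Mrps36, Mrpl45 and Mrps27. Other members named in lists were chosen after their values were seen. Alternatives were replicate blocks, a dim-gene filter, the mean of all probe sets, a variance trend, median centring, quantile normalization, an RNA-quality covariate, a stricter threshold, the 6 arrays of a time alone, and arrays left out.

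How the 6 mice of the design text relate to the arrays is not stated. The number 14 occurs in the titles of 2 arrays at 8 h, the third of corn oil and the second of DEHP. The SD of their difference was 0.286 and that of the closest pair of arrays 0.177, so they are not copies. Same-numbered replicates of the 2 agents did not deviate together (r between −0.351 and 0.144), so the numbers were not taken as pairs.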

Additional observations from a re-analysis of the deposited data

Results flagged for a closer look

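The DEHP effect differed between times in the limma F test for Mrpl38 (adjusted p = 0.0244), Mrpl39 (adjusted p = 0.0431) and Mrpl1 (adjusted p = 0.0496). Mrpl38 was called higher at 2 h, Mrpl39 lower at 8 h, and Mrpl1 higher at 72 h. For Mrpl38 the other probe sets were above 0 at 8 h too (0.28 and 0.28), unlike the probe set used (−0.01).

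The mean over the 76 genes was lower with DEHP at 8 h, by −0.147, and higher at 24 h, with no overlap of the arrays at either time. The difference between these times was not tested for the mean.

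A probe set shared by Mrpl30 and the predicted gene Gm6238 was higher with DEHP at 2 h (0.629 on the log2 scale, limma adjusted p = 0.0251 over all probe sets). The other probe set of this pair gave −0.05 at 2 h. A probe set shared by Mrps34 and Nme3 was lower at 8 h (−0.46, adjusted p = 0.0222). These signals cannot be given to either gene of a pair.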

How the results depend on the processing

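The results were also read under 35 other settings, 24 of them without 1 array. The 101 named values gave 3433 fits under these. The stricter threshold of 0.01 is not among those fits, since it was read for counts of members only. Of 271 such fits of called values, 228 stayed called, 43 did not, and 0 took the other sign. Uncalled values became called in 4 fits: under quantile normalization Mrps22 at 24 h and Mrpl11 and Mrps36 at 72 h, and without corn oil replicate 1 of 72 h Mrpl38 at 72 h (−0.36).

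With the mean of all probe sets, 1 member (Mrps2) was called higher at 8 h, 0 higher at 72 h and 2 for the mean effect. Under median centring 0 were called higher at 72 h and 1 for a difference between times. Under quantile normalization 1 was called higher at 24 h and 4 at 72 h, where the median was 0.13. That setting also called 4 for the mean effect, 12 at any time, 7 between times and 3 between times in corn oil. With the Actb covariate 0 were lower at 8 h, 0 higher at 72 h, 2 were called at any time and 1 between times. Without both arrays numbered 14, 3 were lower at 8 h. At an adjusted p under 0.01, 0 were called at 2 h, 8 h or 72 h, at any time or between times. With only the 6 arrays of a time, 0 were lower at 8 h and 0 higher at 72 h. The cause of these moves was not tested.

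With single arrays left out, called members ranged from 0 to 1 (higher, 2 h), 0 to 5 (lower, 8 h), 0 to 1 (higher, 72 h) and 0 to 1 (lower, 72 h). They ranged from 2 to 7 at any time, 0 to 3 between times and 0 to 2 between times in corn oil. The median ranged from −0.11 to 0.025 at 2 h, −0.19 to −0.08 at 8 h, 0.12 to 0.25 at 24 h and −0.048 to 0.076 at 72 h; it reversed at 2 h when DEHP replicate 3 was left out (0.025), and at 72 h when corn oil replicate 1 (−0.048) or the first DEHP array (−0.02) was. With the replicate number as a block, 1, 5, 0 and 1 members were called at 2, 8, 24 and 72 h, 6 at any time and 3 between times. With 3 arrays per group the median SE of a change was 0.112, which limits how small a change could be called.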
